A study of Mus musculus with 6 samples.

Results

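A set of 44 genes that encode Wnt ligands, their receptors and their secreted modulators was followed in the mouse bladder at embryonic day 18.5. The genes were taken by name from the platform annotation (Wnt, Fzd, Sfrp, Dkk and Rspo genes with a number, Wif1, Lrp5 and Lrp6), out of 18193 genes with a probe set that names 1 gene. They comprised 19 Wnt ligands, 10 Frizzled receptors, 2 Lrp co-receptors, 4 secreted frizzled-related proteins, 4 Dickkopf antagonists, Wif1 and 4 R-spondins. Total RNA of 3 Get1 -/- (null) and 3 Get1 +/- (heterozygous) bladders was measured on 1 array each, and Get1, a transcription factor of the grainyhead-like family, is now called Grhl3. The null arrays are called null 1 to null 3 and the heterozygous arrays heterozygous 4 to heterozygous 6, after the numbers in the sample titles. Heterozygous bladders carry 1 mutant allele themselves. The sources used here do not give the allele, the strain, the sex of the embryos or whether bladders were pooled, so p-values measure the spread between these samples, which may be technical.

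Wnt proteins are secreted, lipid-modified signals. At the cell surface they bind a Frizzled receptor together with Lrp5 or Lrp6, which stabilises β-catenin and switches on target genes through Tcf and Lef factors, while some ligands act through Frizzled without β-catenin. Secreted frizzled-related proteins and Wif1 bind Wnts outside the cell, Dickkopf proteins bind Lrp5 and Lrp6, and R-spondins raise the response by sparing Frizzled from the ubiquitin ligases Znrf3 and Rnf43. In the mouse bladder, stromal Wnts are known to act on the urothelium in a feedback with epithelial hedgehog signals, and Grhl3 is known to interact genetically with planar cell polarity genes in the embryo.

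Levels are given as log2(signal + 16), on which 4 is the lowest possible value, and each gene is represented by its probe set with the highest mean. Differences are null minus heterozygous, errors (SD) are over the 3 arrays of a group, and intervals are 95% intervals of limma, the linear model for arrays that was fitted across all genes. After the dimmest 30% of genes had been left out, 12735 genes were tested, and 29 of the 44 genes were among them. The 15 others were too dim for the test: Dkk4, Fzd9, Rspo4, Sfrp5, Wif1 and the 10 ligands Wnt1, Wnt2b, Wnt3, Wnt3a, Wnt7b, Wnt8a, Wnt8b, Wnt9b, Wnt10b and Wnt16. Nearest the limit of 5.80 were Fzd9 at a mean of 5.61 outside it and Fzd10 at 5.88 inside it.

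In the bladders the Grhl3 level was 6.53, 5.23 and 7.08 on null 1 to null 3, against 7.32, 7.22 and 7.15 on heterozygous 4 to 6. The difference of −0.95 (interval −1.96 to 0.07, adjusted p = 0.655, limma) was not called. Whether this probe set reads the deleted part of the gene is unknown. Over all genes tested, null bladders had 57 genes higher and 8 lower (adjusted p under 0.05, limma with Benjamini-Hochberg adjustment). Markers of intestinal epithelium were among those higher, with 9 of 11 tested members called and a summed signal of 15946 to 25558 on the null arrays, against 362 to 735 on the heterozygous arrays. The median difference was −0.03 over all genes tested. Null 1 stood apart for many genes, being the lowest of the 6 arrays for 10 of the 29 tested Wnt genes and for 24.2% of all genes tested. The number before the array number in its title differs from that of the other 5, and the labels do not say what that number stands for. Heterozygous 6 stood apart as well, being the highest array for 13 of the 29 Wnt genes, against 32.2% of all genes tested, and the lowest for 23.0% of all genes tested. It had the lowest array weight in limma, 0.328, against 0.773 for null 1. Differences without null 1, heterozygous 6 or another array are given where they bear on a gene described in full.

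None of the 29 tested Wnt genes was called in either direction at an adjusted p under 0.05 in limma's test over all genes, where 0.0628% of genes were called lower and 0.448% higher. The smallest adjusted p among them was 0.353 (Rspo2). At an unadjusted p under 0.05, Rspo2, Wnt6, Sfrp4, Wnt5a and Rspo3 were lower (5 of 29, against 4.3% of all genes tested) and Fzd5 was higher (1 of 29, against 3.63%). Without null 1 the counts were 3 lower and 0 higher, where 2.8% of genes tested were lower and 3.03% higher at that threshold. Of all 44 genes, 26 had a difference below 0 and 18 above it, with a median of −0.19, against 54.9% below 0 and a median of −0.04 over all genes with a probe set. The groups did not overlap for 8 of the 44, each lower in null bladders (Rspo2, Rspo3, Wnt6, Wnt8b, Wnt9b, Wnt10b, Dkk1 and Dkk2), and 0 of the 44 were higher in this way, against 6.92% lower and 5.71% higher of all genes with a probe set. Any gene whose groups do not overlap has an exact permutation p (two-sided) of 0.1, the smallest that 3 against 3 arrays allow. For these 8 that p therefore adds nothing.

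**Figure D1:**
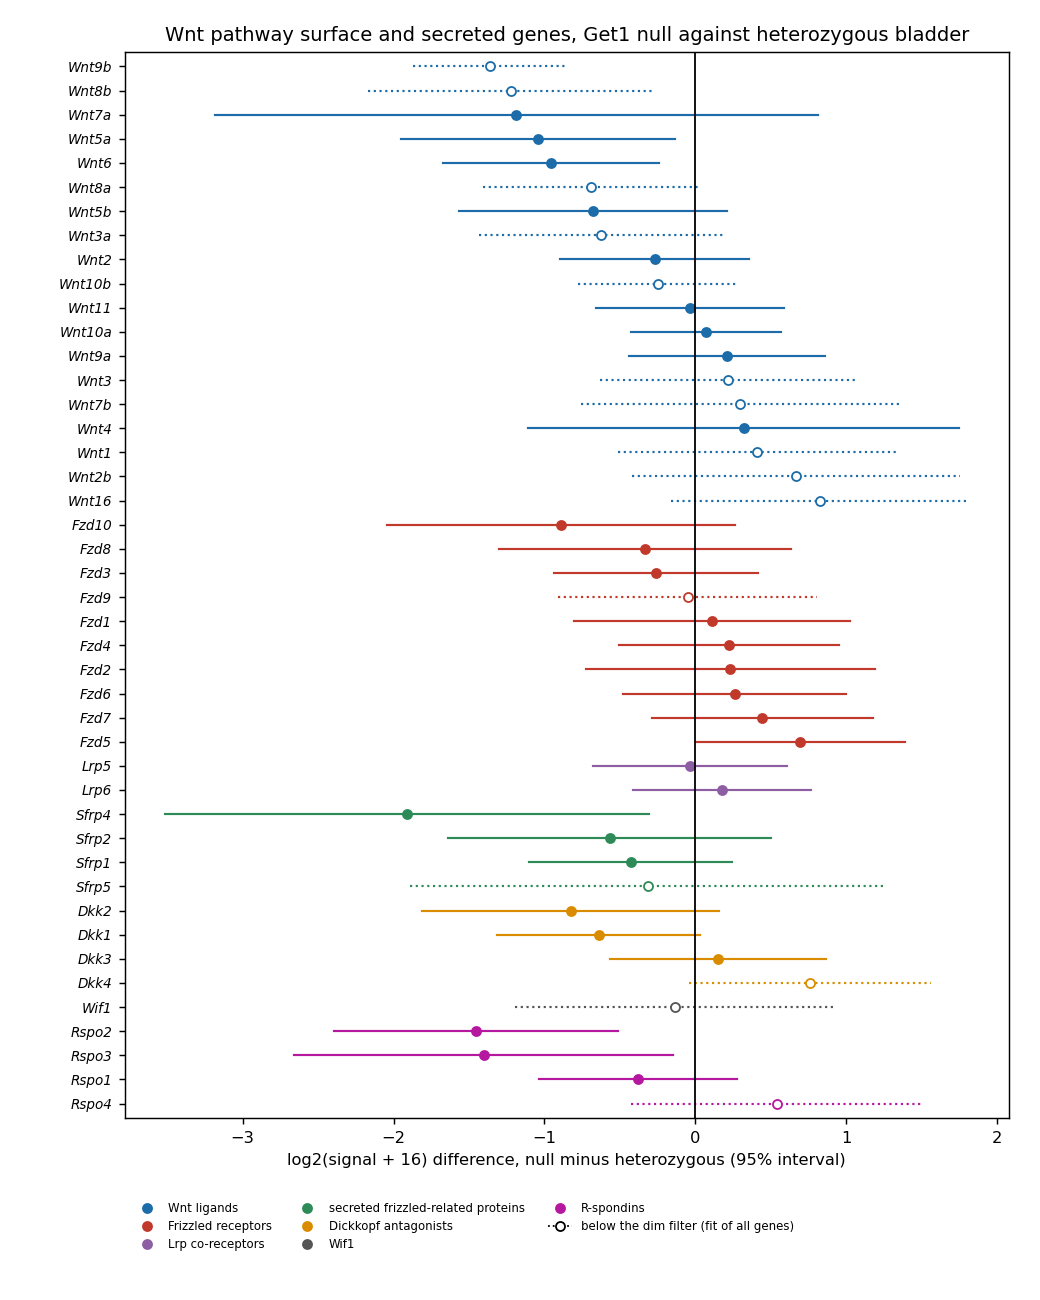
Difference in log2(signal + 16), null minus heterozygous, of the 44 genes (rows, coloured by role), as a point with its 95% interval from limma; filled points are the 29 tested genes and open points with dotted intervals the 15 dim genes, from a fit of all genes. Points run from −1.91 (Sfrp4) to 0.83 (Wnt16), and the R-spondins Rspo1 to Rspo3 and all secreted frizzled-related proteins lie below 0.

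Among the ligands, Wnt5a, a signal of the mesenchyme that mostly acts without β-catenin, was at 8.99, 8.85 and 9.64 on the null arrays, against 9.39, 10.78 and 10.44 on the heterozygous arrays. Null 3 lay above heterozygous 4, so the groups overlapped. The means were 9.16 ± 0.42 in null bladders and 10.20 ± 0.72 in heterozygous ones (SD, n = 3 each), a difference of −1.04 (interval −1.95 to −0.13, adjusted p = 0.555, limma). The 3 dimmer Wnt5a probe sets had differences of −0.95, −0.89 and −0.70. With 1 array left out the difference of Wnt5a stayed between −1.45 and −0.76. Its close relative Wnt5b was at 8.51, 9.10 and 9.21 on the null arrays, against 9.18, 9.23 and 10.44 on the heterozygous arrays, and null 3 lay just above heterozygous 4. The difference of −0.68 (interval −1.57 to 0.21, adjusted p = 0.739, limma) was −0.27 without heterozygous 6. The second probe set of Wnt5b, with a level of 6.92, 6.81 and 6.47 in null bladders against 7.45, 7.40 and 8.27 in heterozygous bladders, did not overlap between the groups.

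Wnt6, a ligand made by embryonic epithelia, was at 6.17, 6.54 and 6.05 on the null arrays, against 7.03, 6.79 and 7.81 on the heterozygous arrays. The groups did not overlap. The means were 6.25 ± 0.25 in null bladders and 7.21 ± 0.54 in heterozygous ones (SD, n = 3 each), a difference of −0.96 (interval −1.67 to −0.24, adjusted p = 0.457, limma). The difference was −0.92 without null 1, −0.65 without heterozygous 6, its highest array, and −0.61 without both. The second Wnt6 probe set differed by −1.05 and overlapped between the groups.

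Wnt7a, a ligand needed for the patterning of the Müllerian duct and the limb, was at 4.10, 7.74 and 7.50 on the null arrays, against 7.51, 7.47 and 7.91 on the heterozygous arrays. Null 1 lay just above the lowest possible level, while null 2 and null 3 lay within the heterozygous range. The difference of −1.19 (interval −3.18 to 0.81, adjusted p = 0.805, limma) was −0.02 without null 1. Emx2, a transcription factor of the genital tract and kidney, was also lowest there, at 6.87, 9.64 and 9.95 on the null arrays, against 10.28, 10.30 and 10.64 on the heterozygous arrays, and its difference of −1.59 was −0.61 without null 1. Of the 6 listed markers of genital tract and nephric duct 4 had a probe set, and their summed signal was 211 on null 1, 1062 and 1341 on null 2 and null 3, and 1374 to 1725 on the heterozygous arrays. Emx2 is in this sum and made up most of it on every array but null 1, so the sum mainly repeats the Emx2 values. Pax8 and Lhx1, which mark the nephric duct, were too dim for the test and had differences below 0. On null 1 they were at 4.25 and 4.08, just above the lowest possible level. Hoxb13, a posterior Hox gene in the same list, lay the other way, at 6.94, 7.70 and 8.19 on the null arrays, against 6.36, 6.19 and 6.25 on the heterozygous arrays. Its groups did not overlap, and its difference of 1.35 (adjusted p = 0.260, limma) was 1.68 without null 1. The part of this tissue in the result was not tested, and in RNA of a whole organ fewer cells of a type and less RNA per cell cannot be told apart.

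Wnt9b, a ligand of the nephric duct that induces kidney tubules, was too dim for the test. It was at 4.22, 4.17 and 4.12 on the null arrays, against 5.58, 5.43 and 5.60 on the heterozygous arrays. All 3 null arrays lay just above the lowest possible level, and the groups did not overlap. The means were 4.17 ± 0.05 in null bladders and 5.53 ± 0.09 in heterozygous ones (SD, n = 3 each). In a fit of all 18193 genes the difference was −1.36, with an adjusted p of 0.0742 (limma). The second Wnt9b probe set, at 4.30, 4.37 and 5.05 on the null arrays against 4.32, 4.20 and 5.58 on the heterozygous arrays, overlapped between the groups. Wnt8b, a ligand of the embryonic forebrain, was at 4.93, 4.10 and 4.12 on the null arrays, against 6.28, 5.61 and 4.93 on the heterozygous arrays, a gap of only 0.0030 between the groups. Its difference in the fit of all genes was −1.22 (adjusted p = 0.499, limma).

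**Figure D2:**
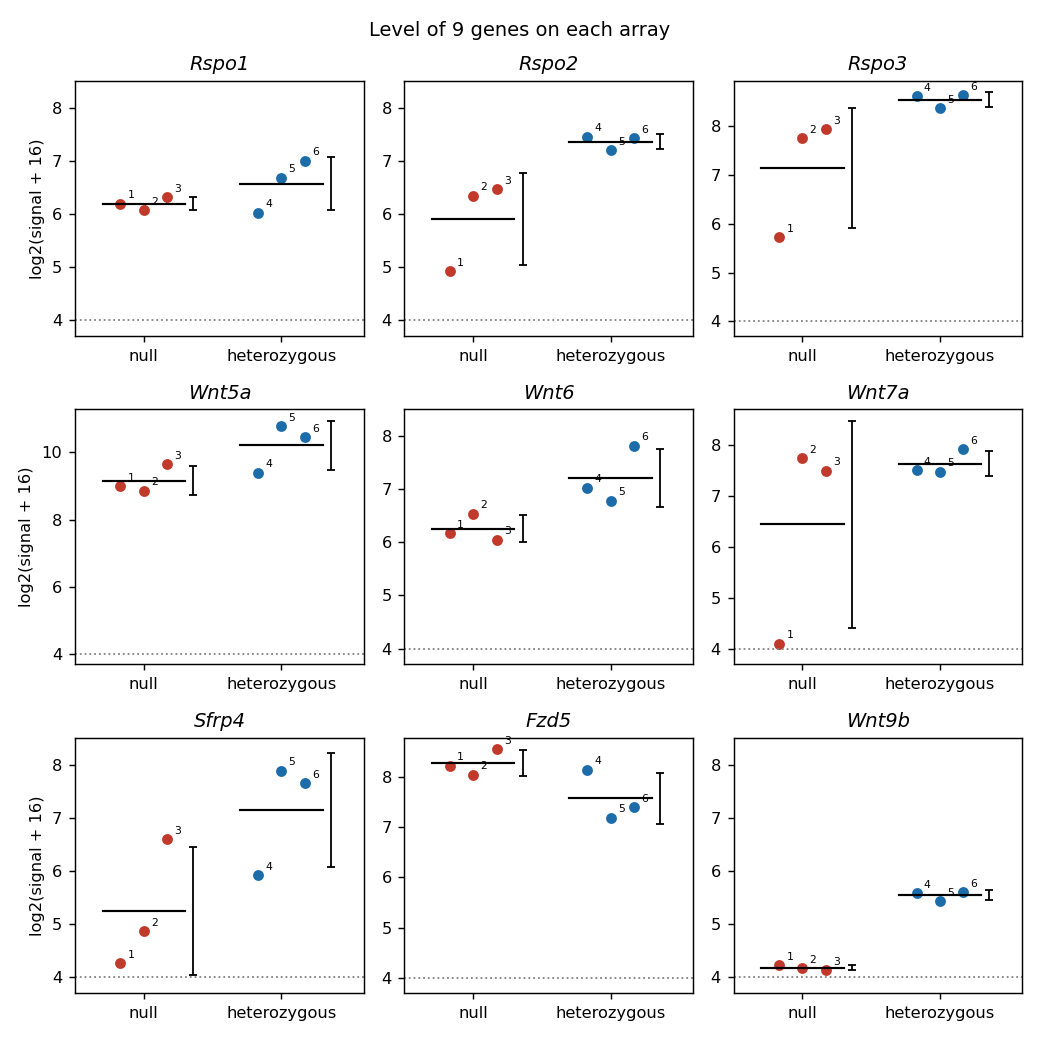
Level of 9 genes as log2(signal + 16) on each array (points, numbered by array; null left, heterozygous right), with the group mean (bar) and SD (error bar beside it); the dotted line is the lowest possible level of 4, and the vertical axes differ. Null 1 is the lowest point for Rspo2, Rspo3, Wnt7a and Sfrp4, while all 3 null points lie below all heterozygous points for Rspo2, Rspo3, Wnt6 and Wnt9b.

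The other tested ligands had smaller differences with all 6 arrays. Wnt2, a stromal ligand that acts in lung formation, averaged 7.17 ± 0.42 in null bladders and 7.44 ± 0.21 in heterozygous ones (SD, n = 3 each). Wnt4, which is needed for kidney tubules and for the Müllerian duct, was at 7.64, 8.39 and 8.18 on the null arrays, against 7.40, 6.59 and 9.26 on the heterozygous arrays, so its heterozygous values enclosed the null ones. Its interval, −1.11 to 1.75, allows a change of more than 2-fold in either direction. The difference of Wnt4, 0.32, was 1.08 without heterozygous 6 and −0.26 without heterozygous 5. Wnt9a, which acts in joint formation, Wnt10a, which acts in teeth and skin appendages, and Wnt11, a ligand of the ureteric bud tip, had differences of 0.21, 0.07 and −0.03, with adjusted p from 0.921 to 0.992 (limma). The second Wnt9a probe set was dim, at 5.99, 4.87 and 5.22 on the null arrays, against 4.87, 4.72 and 4.22 on the heterozygous arrays. It was higher in null bladders by 0.76, and its groups barely failed to overlap. With both averaged the Wnt9a difference was 0.48. The 8 dim ligands other than Wnt8b and Wnt9b had differences between −0.69 (Wnt8a) and 0.83 (Wnt16). Of these, Wnt10b alone did not overlap between the groups, with a difference of −0.25.

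RefSeq promoters of build GRCm38.p6, from 250 bases before to 50 after a transcript start, were matched by symbol for 28 of the 44 genes (31 promoters). They are shown because the bladders differ in a DNA-binding factor and because the pathway ends at Tcf and Lef factors. Rspo2, Rspo3, Sfrp4 and Wnt5a had no entry. Of the 5 genes lower at an unadjusted p under 0.05, only Wnt6 was therefore searched. The grainyhead-like consensus AACCGGTT was found on either strand in 0 of the 31 promoters, and in 0.146% of all 32851. The looser AACCNGTT, which covers the first motif, was found in 1 (Wnt1), against 2.09% of all promoters. The Tcf/Lef motif CTTTGAT was found in 2 (Wnt5b and Wnt11), against 3.73% of all. The windows of 30 bases around these matches, on the strand of the gene and with the match in capitals, were as follows, the windows having been chosen for their match and not for the level of the gene.
Wnt1, chr15:98789628-98789657, plus strand: tccaggctgcaAACAGGTTgtccccagcgc
Wnt5b, chr6:119449439-119449468, minus strand: agtaagtctctCTTTGATctgctccctgtc
Wnt11, chr7:98835050-98835079, plus strand: gacgtgggcggATCAAAGcgacggtccgcg
The matches in Wnt1 and Wnt11 are on the opposite strand, and that of Wnt5b begins 71 bases before the first transcribed base. The 250 bases before the start are given, with no capitals, for the gene with the smallest p in each direction among those with an entry, Wnt6 (lower) and Fzd5 (higher).
Wnt6, chr1:74771642-74771891, plus strand: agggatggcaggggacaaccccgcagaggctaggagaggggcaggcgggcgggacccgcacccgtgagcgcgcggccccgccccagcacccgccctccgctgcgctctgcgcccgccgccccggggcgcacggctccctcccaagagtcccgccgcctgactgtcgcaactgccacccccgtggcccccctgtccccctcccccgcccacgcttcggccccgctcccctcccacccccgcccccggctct
Fzd5, chr1:64737751-64738000, minus strand: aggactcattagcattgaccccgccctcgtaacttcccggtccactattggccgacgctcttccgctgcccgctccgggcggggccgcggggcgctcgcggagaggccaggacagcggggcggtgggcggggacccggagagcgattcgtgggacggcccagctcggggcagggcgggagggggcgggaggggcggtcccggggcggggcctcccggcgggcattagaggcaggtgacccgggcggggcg
The whole promoters of 300 bases hold 76.7% (Wnt6) and 75.7% (Fzd5) of G and C, and neither holds any of the 3 motifs.

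Among the receptors, Fzd5, a Frizzled known from the retina and from Paneth cells of the gut, was at 8.23, 8.04 and 8.55 on the null arrays, against 8.14, 7.19 and 7.39 on the heterozygous arrays. Heterozygous 4 lay above null 2, so the groups overlapped. The means were 8.27 ± 0.26 in null bladders and 7.58 ± 0.50 in heterozygous ones (SD, n = 3 each), a difference of 0.70 (interval 0.0019 to 1.39, adjusted p = 0.627, limma). Its second probe set was dim, and with both averaged the difference was 0.34. Fzd7, a widely used receptor of β-catenin signalling, was at 11.97, 11.57 and 11.66 on the null arrays, against 11.76, 11.46 and 10.64 on the heterozygous arrays, and its difference of 0.44 was 0.12 without heterozygous 6, the lowest array. Fzd10 was at 4.26, 6.46 and 5.60 on the null arrays, against 6.46, 6.17 and 6.36 on the heterozygous arrays, and its difference of −0.89 was −0.30 without null 1.

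The brightest signals of the set came from receptors and from Sfrp2, although signals of different probe sets do not measure relative abundance. Fzd2, with a mean of 13.21 over the 6 arrays, differed by 0.23 (interval −0.73 to 1.19), and Lrp6, with a mean of 12.36, by 0.18 (interval −0.41 to 0.77). Fzd1, with a mean of 11.62, differed by 0.11, and Fzd7 had a mean of 11.51. For Fzd1, Fzd2, Fzd4, Fzd6, Fzd8, Lrp5 and Lrp6 the sign of the difference turned in at least 1 of the alternative fits. Fzd8 differed by −0.33 with overlap between the groups, and its second probe set by −0.74 without overlap. With both averaged the Fzd8 difference was −0.53 (adjusted p = 0.701, limma). Lrp5, the relative of Lrp6 that is known for its effect on bone mass, differed by −0.04 (interval −0.68 to 0.61). Fzd3, a receptor of axon guidance and planar polarity, had 6 probe sets, whose differences ran from −1.05 to 0.05 and of which 5 were below 0. The Fzd3 probe set at −0.80 did not overlap between the groups, and the others did.

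All 4 secreted frizzled-related proteins had differences below 0, against 54.9% of all genes with a probe set, and none of the 3 tested was called. Sfrp5, too dim for the test, differed by −0.31 (interval −1.89 to 1.26 in the fit of all genes). Sfrp4, best known from bone, was at 4.26, 4.86 and 6.59 on the null arrays, against 5.92, 7.88 and 7.65 on the heterozygous arrays. Null 3 lay above heterozygous 4. Its means of 5.24 ± 1.21 in null bladders and 7.15 ± 1.07 in heterozygous ones (SD, n = 3 each) gave the largest difference of the set, −1.91 (interval −3.51 to −0.31, adjusted p = 0.543, limma), which was −1.12 with an offset of 64 and −2.87 with an offset of 1. Sfrp2, with a mean of 13.37 over all arrays, was at 11.99, 13.85 and 13.40 on the null arrays, against 13.96, 13.31 and 13.68 on the heterozygous arrays, and its difference of −0.57 was −0.02 without null 1. Sfrp1 was at 10.65, 11.14 and 11.27 on the null arrays, against 11.00, 11.51 and 11.84 on the heterozygous arrays, a difference of −0.43 (interval −1.10 to 0.25, adjusted p = 0.795, limma). It was −0.24 without null 1 and −0.23 without heterozygous 6. The other 4 Sfrp1 probe sets disagreed: 2 differed by −0.82 and −0.81 without overlap between the groups, and the 2 dimmest by 0.11 and −0.15 with overlap.

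Of the Dickkopf antagonists, Dkk1, the head inducer that blocks Lrp6, was at 5.86, 5.13 and 5.96 on the null arrays, against 5.96, 6.39 and 6.52 on the heterozygous arrays, and the gap between null 3 and heterozygous 4 was only 0.0084. Its difference was −0.64 (interval −1.31 to 0.03, adjusted p = 0.645, limma), and −0.38 without null 2, the lowest array. Dkk2, which limits Wnt signals in the eyelid and cornea, was at 6.81, 8.31 and 8.37 on the null arrays, against 8.46, 8.55 and 8.97 on the heterozygous arrays. The groups did not overlap, but the difference of −0.83 was −0.32 without null 1. Dkk3, a divergent member that is not a typical Lrp antagonist, differed by 0.15 and turned sign in 4 alternative fits with 1 value per gene. The second Dkk3 probe set differed by −0.21, with overlap. Dkk4 and Wif1 lay below the dim limit, with differences of 0.76 and −0.14.

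Among the R-spondins, Rspo2 had the smallest unadjusted p of the 29 tested genes (0.0074), while Wnt9b had a smaller one in the fit of all genes. Rspo2, an agonist needed in limb and lung, was at 4.91, 6.34 and 6.46 on the null arrays, against 7.46, 7.20 and 7.42 on the heterozygous arrays. The groups did not overlap, and null 1 was lowest. The means were 5.91 ± 0.86 in null bladders and 7.36 ± 0.14 in heterozygous ones (SD, n = 3 each), a difference of −1.45, 2.74-fold lower in null bladders (interval −2.39 to −0.52, adjusted p = 0.353, limma). Without null 1 it was −0.96. Over the 14 alternative fits that tested Rspo2 with 1 value per gene the adjusted p lay between 0.261 and 0.586.

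Rspo3, an agonist of vessels and of the intestinal stem cell niche, was at 5.73, 7.76 and 7.94 on the null arrays, against 8.62, 8.37 and 8.64 on the heterozygous arrays. The groups again did not overlap, with null 1 lowest. The means were 7.14 ± 1.23 in null bladders and 8.55 ± 0.15 in heterozygous ones (SD, n = 3 each), a difference of −1.40 (interval −2.66 to −0.15, adjusted p = 0.568, limma) that was −0.70 without null 1. The second probe sets of Rspo2 and Rspo3 were dim, and both overlapped between the groups. That of Rspo2 went the other way, by 0.27, with null 1 highest at 5.48. That of Rspo3 differed by −0.12. With probe sets averaged the Rspo3 difference was −0.76, and Rspo2 was too dim for the test. Rspo1, which acts in ovary development, was at 6.19, 6.06 and 6.31 on the null arrays, against 6.02, 6.68 and 7.00 on the heterozygous arrays, and the difference of −0.38 (interval −1.03 to 0.28, adjusted p = 0.818, limma) was the same without null 1, but −0.16 without heterozygous 6 and −0.65 without heterozygous 4. Rspo4 lay near the lowest possible level on 5 arrays and at 5.71 on null 2.

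**Figure D3:**
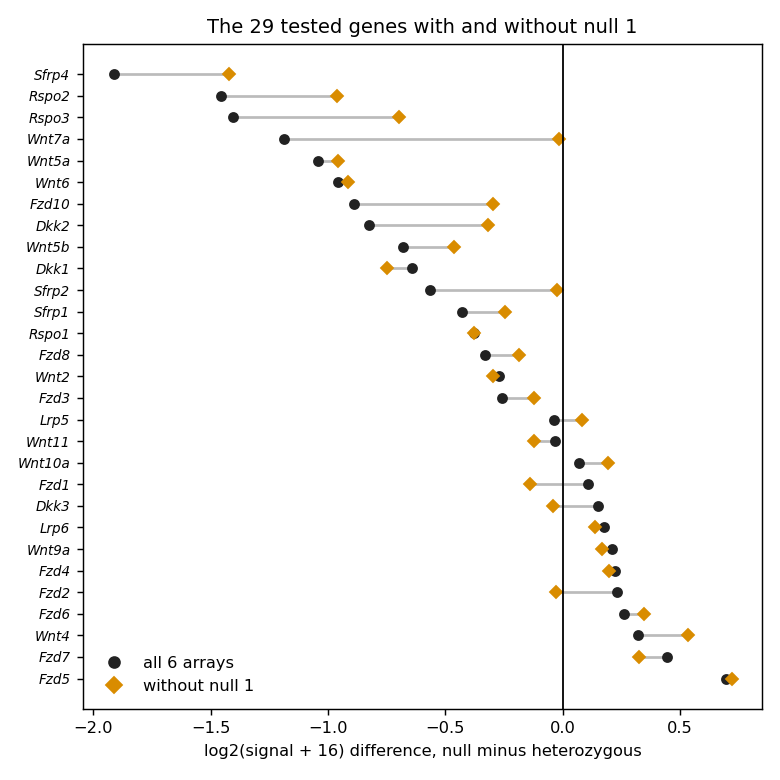
Difference in log2(signal + 16), null minus heterozygous, of the 29 tested genes with all 6 arrays (circles) and without null 1 (diamonds), sorted by the first. Wnt7a and Sfrp2 move to −0.02 and Rspo3 to −0.70, while Wnt5a (−0.96) and Wnt6 (−0.92) stay close to their values from all arrays.

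Markers of other cells were read on the same arrays. Markers of nerve and glia had a median difference of −0.74 (−0.40 without null 1) with 0 of 6 tested called, and a summed signal of 605 to 1078 on the null arrays, with null 1 lowest, against 1195 to 1727 on the heterozygous arrays. The stromal list had a median of −0.17 with 0 of 8 called, and a summed signal of 105911 to 115850 in null bladders against 113650 to 136173 in heterozygous bladders. The smooth muscle list had a median of 0.24 with 0 of 8 called, and a summed signal of 144464 to 157884 in null bladders against 116377 to 143313 in heterozygous bladders. The urothelial list had a median of −0.23, with Upk2 called lower among its 10 genes, of which 5 had differences above 0. Its summed signal was 14425 to 17554 in null bladders against 17736 to 23287 in heterozygous bladders. The genital tract and nephric duct list had a median of −0.50 over its 4 genes, with 0 of 2 tested called. Over its 2 tested genes, which lay on opposite sides of 0, the median was −0.12, and 0.53 without null 1. The medians were, for endothelium −0.05 with 0 of 5 called, for immune cells −0.26 with 0 of 4 and for intestinal mesenchyme −0.0020 with 0 of 2. The summed signal of the immune list was 9577 on heterozygous 6. It was 2619 and 3054 on heterozygous 4 and 5, and 2555 to 3177 on the null arrays. The part of these cells in the differences of the Wnt genes was not tested.

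Beyond the 44 genes, 61 other genes of the pathway were listed, of which 58 had a probe set and 49 were tested. None was called in either direction, where 0.0628% of all genes tested were called lower and 0.448% higher. At an unadjusted p under 0.05 Myc was higher (1 of 49, against 3.63% of all genes tested) and 0 were lower (against 4.3%). The groups did not overlap for 1 of the 58 that was higher and 2 that were lower, against 5.71% and 6.92% of all genes with a probe set. Their median difference was 0.0025 over the 58. Porcn and Wls, which fit Wnts with their lipid and carry them out of the cell, differed by 0.19 and 0.02. Of 10 tested co-receptors and other surface proteins, Lgr4, an R-spondin receptor, differed by 0.52 (adjusted p = 0.749, limma), Ror2, a Wnt5a receptor, by −0.34 and Kremen1, a Dickkopf receptor, by 0.20. Lgr5, the R-spondin receptor of crypt stem cells, was too dim for the test, at 4.89, 5.70 and 5.91 on the null arrays, against 5.22, 6.55 and 5.90 on the heterozygous arrays. Znrf3 and Rnf43 differed by 0.22 and 0.03.

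All 5 tested genes of the other antagonists had differences below 0. Of all 8 with a probe set 7 were below 0, against 54.9% of all genes with a probe set. The 1 above 0, at 0.64, was too dim for the test. The membrane inhibitor Apcdd1 was at 9.90, 11.68 and 11.66 on the null arrays, against 11.62, 11.99 and 12.78 on the heterozygous arrays. Null 1 stood lowest, and the other 2 null arrays lay just above heterozygous 4. The difference of Apcdd1 was −1.05 (adjusted p = 0.697, limma), and −0.46 without null 1. Frzb, a relative of the secreted frizzled-related proteins, was at 6.63, 6.99 and 6.83 on the null arrays, against 7.31, 7.34 and 7.05 on the heterozygous arrays, and its groups did not overlap (difference −0.42, adjusted p = 0.713, limma). Igfbp4 differed by −0.78, with heterozygous 6 the highest array.

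The 24 tested transducers inside the cell had a median of 0.0025. Ctnnb1, which encodes β-catenin, differed by −0.0024 (interval −0.45 to 0.44), and Btrc, a subunit of the ligase that marks β-catenin for breakdown, Axin2, a target that is also a brake, and Dvl2, which relays the Frizzled signal, by −0.42, −0.36 and −0.26. Of the 24, 12 were above 0, with Tcf7l1, a Tcf factor, highest at 0.28. Csnk1e, a casein kinase that was too dim for the test, differed by 1.12. Of 13 tested target genes 8 had differences below 0. Myc, a growth regulator, was at 6.52, 6.51 and 6.65 on the null arrays, against 5.91, 5.90 and 4.20 on the heterozygous arrays. The groups did not overlap, with a difference of 1.22 (adjusted p = 0.546, limma) that was 0.65 without heterozygous 6, the lowest array. Sox9, a progenitor factor of many epithelia, differed by 0.62 (adjusted p = 0.701, limma), Lef1 by −0.34 and Nkd1 by −0.03.

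**Figure D4:**
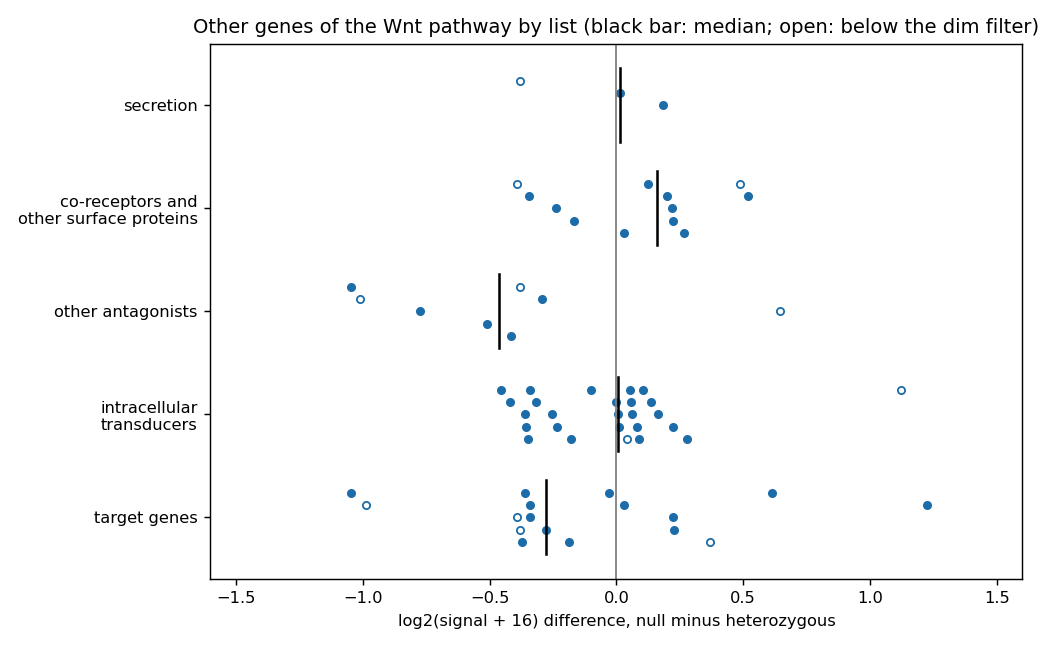
Difference in log2(signal + 16), null minus heterozygous, of the other genes of the pathway (points) in 5 lists (rows); the black bar is the median of a list, and open points are genes below the dim limit. Medians are 0.02 (secretion), 0.16 (surface proteins), −0.46 (other antagonists), 0.0079 (transducers) and −0.28 (targets), and some genes stand in 2 lists.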

How the data were processed

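Total RNA of 3 null and 3 heterozygous embryonic bladders was measured on 1 array each. The deposited values are 1 intensity per probe set on a linear scale, and the submitters' processing notes name Affymetrix Expression Console 1.1 and PLIER 2.0, without their settings. Whether the authors scaled the arrays beyond this is unknown; the upper quartile of an array lay between 336 and 372. Of 45101 probe sets 64 were controls, 34945 named 1 gene in the platform annotation, 932 named several and 9160 are unnamed here.

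From these, log2(signal + 16) was computed, the probe set with the highest mean stood for its gene, and the dimmest 30% of genes were left out. Groups were compared by lmFit and eBayes of limma 3.58.1, run in R 4.3.3, with Benjamini-Hochberg adjustment over 12735 genes and a threshold of 0.05, and with exact permutation tests of single genes. The fit was also tested on simulated data. It called 22% of genes with a true log2 change of 1, 72% with 2, 63.4% with −2 and 96% with 4. These shares are over the genes left after the filter on dim genes, which followed the change. That was 41 genes for −2 and 50 for each of the others, so falls that took a gene below the filter are not counted. A gene that was not called is therefore not shown to be unchanged. Folds understate the change of dim genes because of the offset. The number of arrays limits the precision. Members, gene lists and tests were chosen with earlier results of these data known. Values on every array are given for the 14 tested members with the smallest p, and for others by their level, because an array stands apart or to show the spread of a list, which was decided after their values were seen. Offsets, filters, normalizations, probe set rules, limma settings and left-out arrays were varied. Protein sequences were not used here.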

Additional observations from a re-analysis of the deposited data

How the results depend on the processing

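In each of the 16 alternative fits limma called 0 of the tested Wnt genes in either direction, and the lowest adjusted p of any of the 29 was 0.261. The median difference of −0.27 ran from −0.38 with probe sets tested one by one to −0.10 without null 1 and heterozygous 6, a setting chosen after seeing the data, and was −0.12 without null 1. The count of Wnt genes lower at an unadjusted p under 0.05 (5) was 2 with array weights. It was 3 without null 1 and heterozygous 6. With probe sets tested one by one it was 9, a gene being counted if any of its probe sets passed. It was 2 to 6 with each array left out in turn, being 3 without null 1, 2 without heterozygous 5 and 2 without heterozygous 6. The count of those higher (1) was 0 with an offset of 1, with no filter on dim genes, with arrays centred on their median, with probe sets averaged, with trend and robust settings, with array weights and with probe sets one by one, and 0 to 1 with each array left out. Over all genes 36 were called higher and 5 lower with an offset of 1, and 5 lower without null 1 and heterozygous 6. With each array left out 38 to 54 were called higher and 5 to 9 lower, with 5 lower without null 2 and 5 without heterozygous 5. Of the 29 tested genes 13 changed the sign of their difference in at least 1 alternative and 16 in none. The cause of these shifts was not tested. Array centring changed no sign among the 29, and quantile normalization turned only that of Wnt11, which lay near 0. No paired analysis was made, since the array numbers, 1 to 3 and 4 to 6, name no pairs. The number before the array number is 2 in the titles of null 2, null 3 and all heterozygous arrays. What it stands for is unknown, so whether the arrays fall into blocks that cross the groups was not tested.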
